A study of Mus musculus with 6 samples.

Results

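Carriers that bring organic ions and bile acids into cells, and transporters that move them out, were compared between genotypes in liver, with Mir137-/- mice set against Mir137+/+ mice on postnatal day 14. The members were all genes with a probe set annotated to a single symbol that begins with Slco, Slc10a, Slc22a, Slc47a or Slc51, or with Abca, Abcb, Abcc, Abcd or Abcg and a number. There were 85 such genes among the 18194 genes measured. Of these, 41 were uptake carriers (15 Slco, 5 Slc10a and 21 Slc22a genes) and 44 were counted as export genes (14 Abca, 8 Abcb, 10 Abcc, 3 Abcd, 6 Abcg, 1 Slc47a and 2 Slc51 genes). The split is by family and is rough, since some members work both ways. Among those counted as export, Abcd2 and Abcd3 import into peroxisomes and Abcc9 is a channel subunit.

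The study asked which liver transcripts differ when the microRNA miR-137 is missing from the whole body. Mir137-/- mice were homozygous for a germline deletion of the Mir137 region, made with Cre recombinase in embryonic stem cells, and came, like the Mir137+/+ mice, from matings of heterozygous mice. Neither group was treated, and both were kept under standard housing. Total RNA of whole liver was hybridized to Affymetrix mouse arrays, with 1 mouse per array and 3 arrays per genotype. The deletion is in every organ, and loss of the microRNA in liver and loss elsewhere cannot be told apart here. Mir137 has no probe set under its own name, and its loss was not checked on these arrays.

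The missing microRNA is shown here because it defines the groups. Its mature forms are given in the RefSeq sequence with the seed, bases 2 to 8, in capitals, both from the plus strand of chromosome 3 (GRCm38.p6).
mmu-miR-137-3p, chr3:118433901-118433923: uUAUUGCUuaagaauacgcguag
mmu-miR-137-5p, chr3:118433865-118433887: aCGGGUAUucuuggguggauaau
Seed sites in the members' transcripts were not analysed here.

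Hepatocytes take organic anions, organic cations and bile acids from sinusoidal blood through carriers of the Slco (OATP), Slc10a and Slc22a (OAT, OCT and OCTN) families. ATP-binding cassette (ABC) proteins of the canalicular membrane then push bile acids, phospholipid, sterols and conjugates into bile, while other ABC proteins and the Slc51a-Slc51b pair return such compounds to blood. Further ABC proteins lie in mitochondria, peroxisomes and lysosomes. Many of these genes in liver are controlled by nuclear receptors.

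Every value is a log2 level of a probe set, and every difference is Mir137-/- minus Mir137+/+ on the log2 scale. Where a gene had several probe sets, the one with the highest 6-array mean was read. A gene was called when its adjusted p in limma, with Benjamini-Hochberg adjustment over 18194 genes, was below 0.05 and the fold was above 1.5. A gene is named dim here when its mean over the arrays lay below the array median of about 4.9. No detection calls were used, and levels of different genes were not set against each other, since probe sets differ in brightness.

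Some arrays stood apart. Although the methods name male mice, Xist reached 10.91 (replicate 2) and 10.81 (replicate 3) on 2 Mir137+/+ arrays and stayed within 3.66 to 4.24 on the remaining 4. Transcripts from the Y chromosome ran the other way. Eif2s3y read 2.06 in Mir137+/+ replicate 2 and 2.51 in replicate 3, against 8.46 to 8.62 elsewhere, and Kdm5d and Uty had the same pattern. By these genes 2 Mir137+/+ mice read as female and all Mir137-/- mice as male. Genotype and sex are thus partly mixed in every difference of the main fit. Skeletal muscle markers (6 of 6 measured) had a median of 5.13 above the Mir137+/+ mean on Mir137-/- replicate 1, against -0.07 to 0.29 elsewhere. Exocrine pancreas markers (5 of 6 measured) were raised on replicate 2 of both genotypes, with medians of 3.14 for Mir137-/- and 1.94 for Mir137+/+ against -1.15 to -0.86 on the other arrays. For markers that define hepatocytes (7 of 9 measured, 0 called) the median on an array lay between -0.04 and 0.01. Single markers went both ways, with Cps1 at -0.30 and Apob at 0.29, neither with overlapping groups, and Ass1 at 6.32 on Mir137-/- replicate 1 against a Mir137+/+ mean of 7.22. The level of Alb was 13.72 ± 0.02 in knockout against 13.76 ± 0.03 in wild-type liver (SD, n = 3 for each genotype). The highest value on any array was 13.79, so Alb lay at the top of the scale, where a change may not show. Neutrophil markers were lower in Mir137-/- (4 of 5 called, medians of -1.74 to -1.17 on the 3 arrays), as were B cell precursor markers (3 of 3 called, -1.46 to -1.13). The 5 kidney markers were all dim, with medians of -0.21 to 0.07, and cholangiocyte markers (5 of 6 measured, 0 called) had array medians of -0.11 to 0.13, with differences from -0.30 for Sox9 to 0.21 for Krt7 and Krt19. Of the Kupffer cell and endothelium markers 0 were called (6 and 5 measured), and of the stellate cell and erythroid markers 1 each was called, lower (5 and 3 measured). The part of these other cells, or of sex, in the differences below was not tested beyond the values given with each.

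In Mir137-/- liver, 6 of 41 uptake carriers were lower (14.6%) and 3 were higher (7.32%), whereas 3 of 44 export genes were higher (6.82%) and 0 were lower. Over all genes, 3.34% were called lower and 2.34% were called higher. The uptake carriers that fell were the organic anion carriers Slc22a7, Slc22a26, Slc22a29 and Slc22a27 and the OATPs Slco2b1 and Slco1a4. Slc22a29 and Slc22a27 were read only by probe sets that can bind related transcripts. Without probe sets of that kind, which end in _s_at or _x_at, 4 uptake carriers were lower. Those that rose were Slc22a5, Slc22a15 and Slc22a8, and the export genes that rose were Abcc3, Slc51b and Abcc12. Without adjustment and with no fold threshold, the directions were more even for uptake. At p below 0.05 limma gave 8 lower and 8 higher uptake carriers (19.5% each) and 4 lower and 8 higher export genes (9.09% and 18.2%), against 14.6% lower and 12.2% higher over all genes. The methods' t-test gave 9 and 5 for uptake (22% and 12.2%) and 4 and 7 for export (9.09% and 15.9%), against 13.6% lower and 10.8% higher over all genes. The lowest export difference was -0.43. Uptake gave 4 lower and 0 higher calls when Xist was used as a sex term, 1 and 0 without the arrays with Xist, 4 and 0 without the arrays with pancreas transcripts, and 5 and 2 without the array with muscle transcripts. Export gave 0 lower calls in all of these, and 1, 1, 0 and 3 higher ones in the same order. Whether uptake and export differ from each other was not tested.

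The median difference was 0.02 over the 41 uptake carriers, 0.03 over the 44 export genes and 0.00 over all genes. Groups did not overlap for 19 uptake carriers (9 higher and 10 lower) and 13 export genes (8 higher and 5 lower), which is 46.3% and 29.5%, against 32.3% of all genes. Many uptake carriers are not liver genes, and 20 of the 41 were dim. Among the 21 others, 6 were lower and 2 were higher, and the median difference was -0.13 with a median size of 0.31. Among 36 export genes that were not dim, 0 were lower and 2 were higher, with a median of 0.02 and a median size of 0.15. All 11503 genes that were not dim had a median of -0.02 and a median size of 0.17, with 4.48% called lower and 3.23% called higher. Read array by array, the uptake carriers that were not dim had medians of -0.14, -0.24 and -0.20 on Mir137-/- replicates 1, 2 and 3 and of 0.05, -0.05 and 0.01 on the Mir137+/+ replicates. The Mir137-/- arrays were thus the lower ones, while for export the 3 Mir137-/- medians of 0.02, 0.09 and -0.02 lay within or near the Mir137+/+ range of -0.03 to 0.06.

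**Figure D1:**
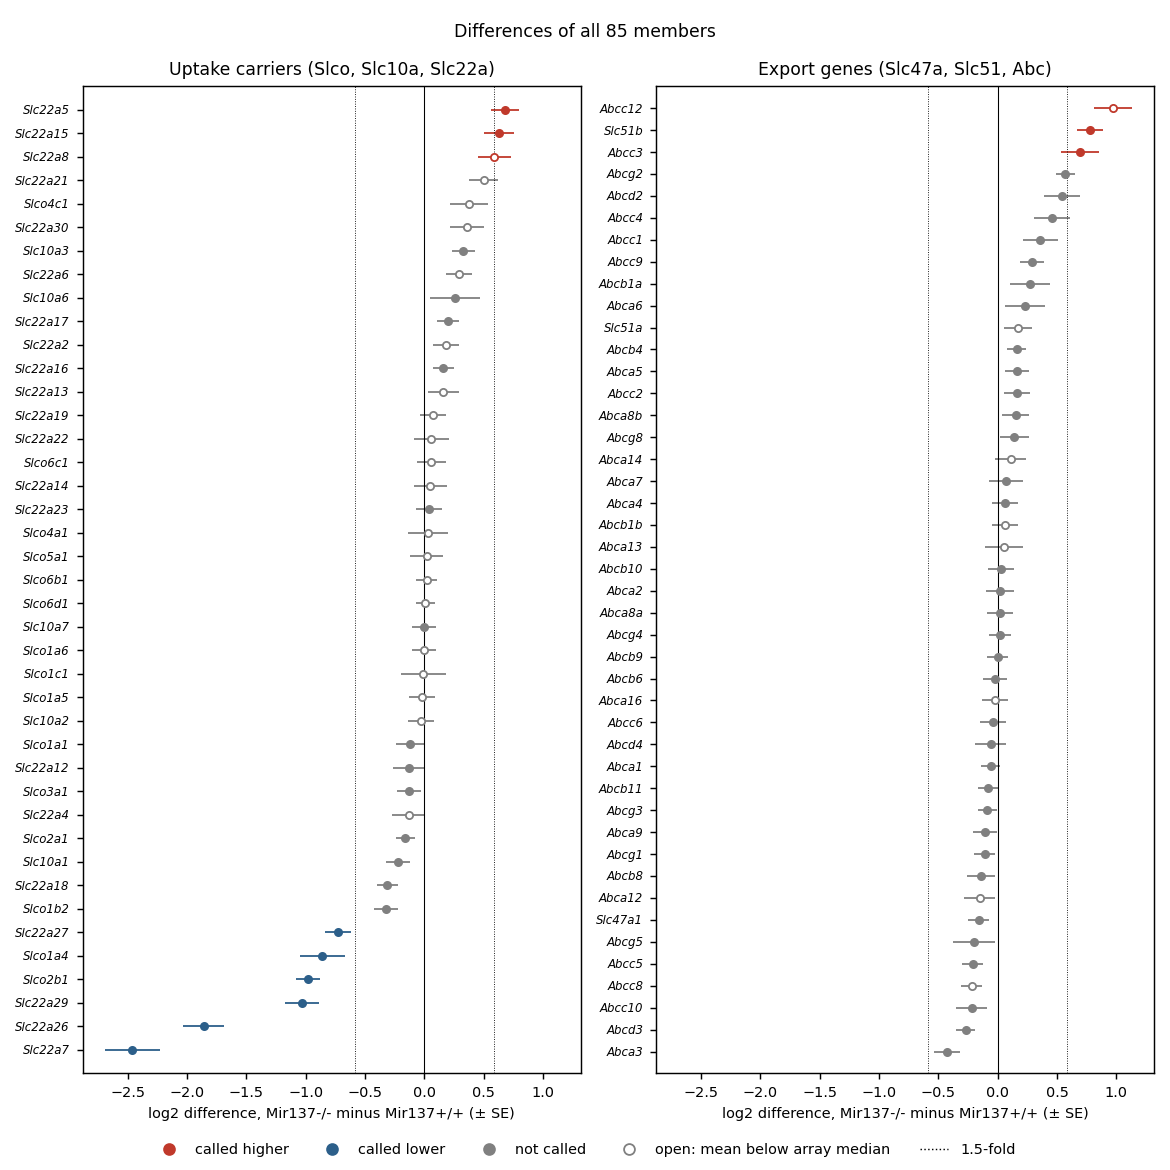
Difference of each of the 85 members (log2, Mir137-/- minus Mir137+/+, bars show the SE of the limma fit), with uptake carriers on the left and export genes on the right. Blue points were called lower, red points were called higher, open points are dim genes and dotted lines mark 1.5-fold. All 6 genes called lower are uptake carriers, and Slc22a7 at -2.46 is farthest from 0.

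Slc22a7 (OAT2), a sinusoidal carrier of organic anions and of nucleobases and their derivatives, fell most. Its level was 7.49, 6.85 and 7.85 in Mir137-/- and 9.78, 9.74 and 10.04 in Mir137+/+. Every Mir137-/- array lay far below every Mir137+/+ array, although the Mir137-/- arrays also spread more among themselves (SD of 0.51 against 0.16). The difference was -2.46 (SE 0.23, adjusted p = 0.00106), a 5.49-fold lower level. In bulk liver, fewer cells of a type and less RNA per cell cannot be told apart. The gene was still called with Xist as a sex term (-2.38), which leaves Mir137+/+ replicate 1 as the only control, and without the arrays with pancreas transcripts (-2.24). It was not called when both arrays with Xist were left out, which leaves 1 Mir137+/+ array (-2.38, adjusted p = 0.0681).

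Slc22a26, Slc22a27 and Slc22a29 belong to a rodent group of Slc22a organic anion carriers that lie in a run on chromosome 19. Slc22a26 was at 5.72, 5.05 and 5.58 in Mir137-/- and at 7.41, 7.29 and 7.23 in Mir137+/+. The groups were well apart, and it fell by 1.86 (SE 0.17, adjusted p = 9.03e-04). A second Slc22a26 probe set also was called, with 4.69, 4.57 and 4.64 against 7.19, 7.33 and 6.85. Slc22a29 was at 8.35, 8.30 and 8.83 against 9.50, 9.49 and 9.59, with a difference of -1.03 (SE 0.14, adjusted p = 0.0042). Slc22a27 was at 9.05, 8.97 and 9.32 against 9.83, 9.80 and 9.89, with a difference of -0.73 (SE 0.11, adjusted p = 0.00568). In both, Mir137-/- replicate 3 was nearest to the Mir137+/+ arrays, yet no Mir137-/- array reached them. The probe sets of Slc22a27 and Slc22a29 end in _x_at, the suffix for probes that can bind related transcripts, so these near-identical genes are not cleanly separated. With Xist as a sex term neither passed (Slc22a27 -0.72, adjusted p = 0.0863, and Slc22a29 -1.01, adjusted p = 0.0739), and neither passed without the pancreas arrays (-0.68 and -0.96). Slc22a26 passed in both (-1.96 and -1.67), but not without the arrays with Xist (-1.96, adjusted p = 0.0556).

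Along chromosome 19 the run of genes is Slc22a19, Slc22a26, Slc22a27, Slc22a28, Slc22a29, Slc22a30, Slc22a8 and Slc22a6. Slc22a28 is not among the members here. Read by probe sets annotated to them alone, the genes around the fallers were not called lower. Slc22a19 differed by 0.07 (adjusted p = 0.73), Slc22a30 by 0.36 (adjusted p = 0.153) and Slc22a6 by 0.29 (adjusted p = 0.147), and all of these were dim. A brighter probe set annotated to both Slc22a30 and Slc22a29 was called lower (8.32 against 9.43, a difference of -1.11). Which of those genes gave that signal was not tested, so a fall of Slc22a30 is not settled. Slc22a8 (OAT3) and Slc22a6 (OAT1) are the main organic anion carriers of kidney. Slc22a8 was dim, at 4.42, 4.46 and 4.88 in Mir137-/- and 3.99, 4.12 and 3.89 in Mir137+/+. It lay just over the fold threshold with a difference of 0.59 (SE 0.14, adjusted p = 0.0321), and its second probe set was not called (0.42). It fell out of the called genes without Mir137-/- replicate 2 (0.65, adjusted p = 0.0512) or 3 (0.44), without any of the 3 Mir137+/+ arrays (0.58, 0.65 and 0.53), and with the replicate block (0.59, adjusted p = 0.0664). Nor was it called with Xist as a sex term (0.60, adjusted p = 0.229) or without the pancreas arrays (0.71, adjusted p = 0.102).

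Slco2b1 (OATP2B1), a carrier of steroid sulfates and drugs, was at 6.82, 6.72 and 6.69 in Mir137-/- and at 7.78, 7.54 and 7.85 in Mir137+/+. The Mir137-/- arrays lay close together and below all others, with a difference of -0.98 (SE 0.10, adjusted p = 0.00157). Its second probe set was at 5.78, 5.87 and 5.86 against 8.17, 8.26 and 8.50, a difference of -2.47, while another probe set with a low level differed by -0.07 and was not called. The size of the fall in Slco2b1 thus depended on the probe set. Slco2b1 stayed called with Xist as a sex term (-1.04) and without the pancreas arrays (-1.06), but not without the arrays with Xist (-1.04, adjusted p = 0.0537).

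Slco1a4 (OATP1A4), which carries bile acids, steroid conjugates and cardiac glycosides, was at 9.02, 9.13 and 9.21 in Mir137-/- and at 10.32, 9.54 and 10.08 in Mir137+/+. Mir137+/+ replicate 2 lay nearer to the Mir137-/- arrays than its fellows, and the difference was -0.86 (SE 0.19, adjusted p = 0.0239). It was not called without Mir137-/- replicate 1 (-0.81, adjusted p = 0.0691) or 2 (-0.86, adjusted p = 0.0636) or without Mir137+/+ replicate 1 (-0.69, adjusted p = 0.0626) or 3 (-0.81, adjusted p = 0.0859). It was called with Xist as a sex term (-1.20) and without the pancreas arrays (-1.08). On chromosome 6 it lies in a run of Slco1 genes, between Slco1b2 and Slco1a1. Slco1b2, the main OATP of mouse hepatocytes, was at 11.28, 11.42 and 11.53 against 11.83, 11.68 and 11.68. Its groups did not overlap, but the difference of -0.32 (SE 0.10, adjusted p = 0.0758) was not called. Slco1a1, an OATP of adult male liver, lay near the array median in both genotypes (4.84 ± 0.22 and 4.97 ± 0.03, SD, n = 3 each) and differed by -0.12. Slco1c1, Slco1a5 and Slco1a6, the other genes in the run, were dim and differed by -0.01, -0.02 and 0.00. Of the other Slco genes that were not dim, the prostaglandin carrier Slco2a1 differed by -0.16 (adjusted p = 0.249).

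Of the 5 Slc10a genes 0 were called, and 1 had an unadjusted p below 0.05, both in limma and in the methods' t-test. Slc10a1 (NTCP), the sodium-driven carrier that takes conjugated bile acids from blood into hepatocytes, was at 11.52, 11.40 and 11.47 in Mir137-/- and at 11.77, 11.53 and 11.74 in Mir137+/+. All Mir137-/- arrays lay below the Mir137+/+ arrays, by a small margin, and the difference of -0.22 (SE 0.10, adjusted p = 0.198) did not pass. Slc10a3 differed by 0.33 (adjusted p = 0.0864) and Slc10a7 by -0.00, and Slc10a2, the intestinal bile acid carrier, was dim.

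**Figure D2:**
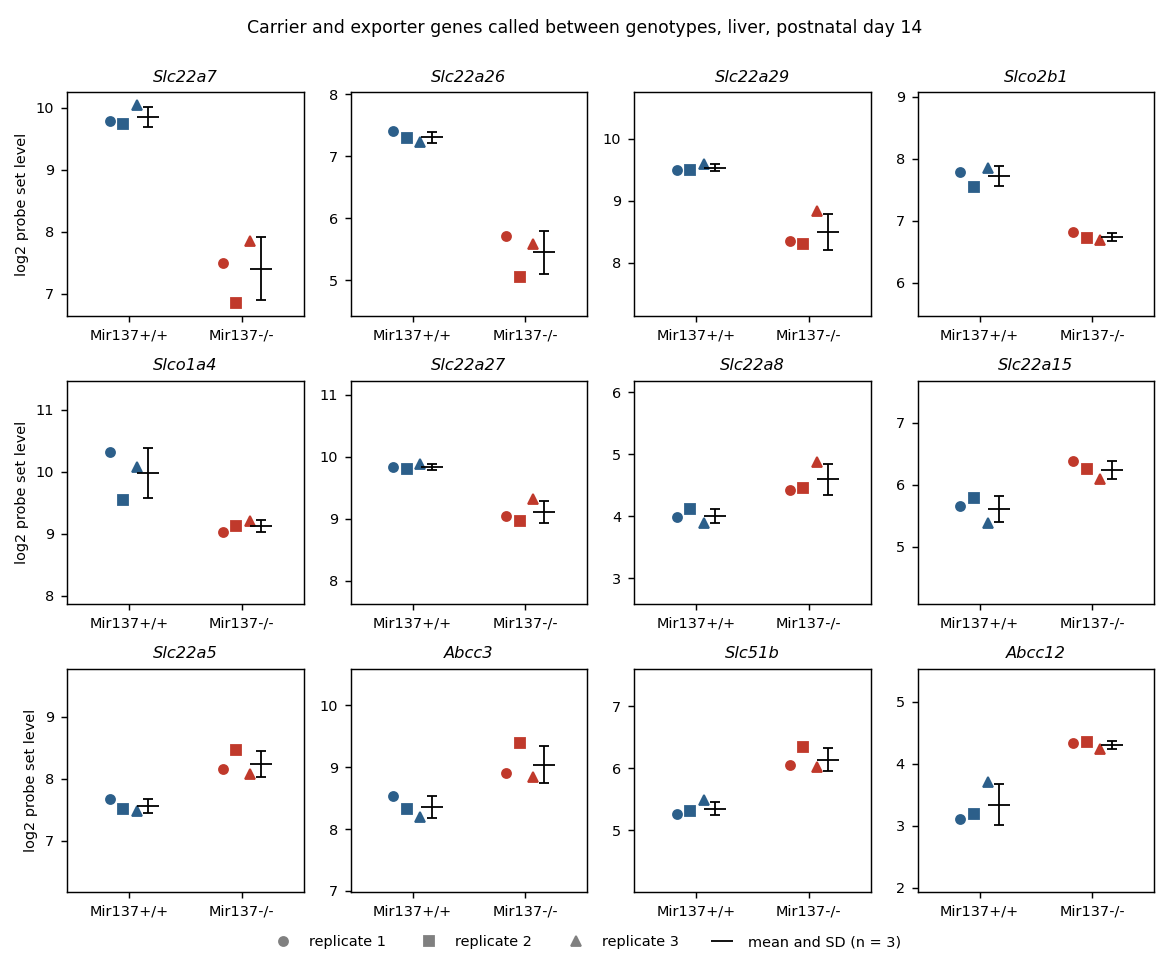
Log2 probe set level of the 12 called members on each array, with Mir137+/+ in blue and Mir137-/- in red and a symbol for each replicate number; black marks show the mean and SD (n = 3), and every panel spans the same log2 range. In no panel do the genotypes overlap, and Slc22a7 shows the widest gap, from 7.85 to 9.74.

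The Slc22a genes that rose, apart from the dim Slc22a8, were carriers of carnitine and other zwitterions. Slc22a5 (OCTN2), the high-affinity carnitine carrier, was at 8.16, 8.47 and 8.08 in Mir137-/- and at 7.68, 7.51 and 7.48 in Mir137+/+. It rose by 0.68 (SE 0.12, adjusted p = 0.0121), and its second probe set, with a difference of 0.69, also was called. It was not called without Mir137-/- replicate 2 (0.56), without Mir137+/+ replicate 2 (0.66, adjusted p = 0.0508) or 3 (0.64, adjusted p = 0.0526), with Xist as a sex term (0.56, adjusted p = 0.177) or without the pancreas arrays (0.54, adjusted p = 0.0821). Its neighbours on chromosome 11 are Slc22a21 (OCTN3) and Slc22a4 (OCTN1), both dim. Slc22a21 had an adjusted p of 0.035 at a difference of 0.50, below 1.5-fold, and Slc22a4 differed by -0.13 (adjusted p = 0.616).

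Slc22a15, a carrier of zwitterions, was at 6.38, 6.25 and 6.10 in Mir137-/- and at 5.66, 5.79 and 5.38 in Mir137+/+. All Mir137-/- arrays lay above the rest, with a difference of 0.63 (SE 0.13, adjusted p = 0.0194), and the second probe set gave 0.64 and was called. The call was lost without Mir137-/- replicate 1 (0.56, adjusted p = 0.059) or 2 (0.63, adjusted p = 0.0538), without Mir137+/+ replicate 1 (0.66, adjusted p = 0.055) or 3 (0.52, adjusted p = 0.0589), with Xist as a sex term (0.58, adjusted p = 0.205) and without the pancreas arrays (0.72, adjusted p = 0.0785). Of the other Slc22a genes, Slc22a18 was at -0.31 (adjusted p = 0.0716) and the orphan carrier Slc22a23 at 0.04 (adjusted p = 0.869). The other Slc22a18 probe set had a mean of 8.12 in each genotype. With the mean of its probe sets Slc22a18 was at -0.16 (adjusted p = 0.337 in limma).

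Of the 3 called export genes, Abcc3 and Slc51b work at the blood-facing membrane. Abcc3 (MRP3), which returns glucuronides and bile acids to sinusoidal blood, was at 8.90, 9.38 and 8.84 in Mir137-/- and at 8.54, 8.32 and 8.19 in Mir137+/+. The groups were apart by a narrow margin, and the difference was 0.69 (SE 0.16, adjusted p = 0.0315). It was lost without Mir137-/- replicate 1 (0.76, adjusted p = 0.0516) or 2 (0.52, adjusted p = 0.0512), without Mir137+/+ replicate 2 (0.68, adjusted p = 0.101) or 3 (0.61, adjusted p = 0.11), with Xist as a sex term (0.50, adjusted p = 0.328) and without the pancreas arrays (0.51, adjusted p = 0.143).

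Slc51b (OST-beta), the partner of Slc51a in the basolateral exit of bile acids, was at 6.05, 6.34 and 6.02 in Mir137-/- and at 5.27, 5.31 and 5.48 in Mir137+/+. The difference of 0.78 (SE 0.11, adjusted p = 0.00524) was a 1.72-fold rise, with every Mir137-/- array above every Mir137+/+ array. Slc51a, without which Slc51b does not form a carrier, was dim at 4.14 ± 0.21 and 3.97 ± 0.09 (SD, n = 3 each) and differed by 0.17 (adjusted p = 0.434). Slc51b did not pass with Xist as a sex term (0.87, adjusted p = 0.0555) or without the pancreas arrays (0.66, adjusted p = 0.0543). Abcc4 (MRP4), another exporter to blood, was at 6.24, 6.49 and 5.93 against 5.57, 5.82 and 5.88. Its difference of 0.46 (SE 0.15, adjusted p = 0.0958) was not called, and without Mir137-/- replicate 3 it was (0.61, adjusted p = 0.0362).

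Abcc12 (MRP9), whose substrates are not well known, was a dim gene, at 4.33, 4.35 and 4.23 in Mir137-/- and 3.11, 3.19 and 3.71 in Mir137+/+. The difference was 0.97 (SE 0.16, adjusted p = 0.00787) and was called with Xist as a sex term (1.19), but not without the pancreas arrays (0.87, adjusted p = 0.0991). Its second probe set differed by -0.04 and was not called, and with the mean of both the gene was at 0.46 and was not called.

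Abcg2 (BCRP), an exporter of sulfate conjugates, urate and many drugs in the canalicular membrane, was at 9.40, 9.47 and 9.52 in Mir137-/- and at 8.89, 8.84 and 8.95 in Mir137+/+. The arrays of each genotype lay close together and the groups were clearly apart. The difference of 0.57 (SE 0.08, adjusted p = 0.00508) stood at 1.48-fold, just under the threshold. It passed without Mir137-/- replicate 1 (0.60), without Mir137+/+ replicate 3 (0.60) and after quantile normalization (0.60). Its adjusted p rose above the threshold with Xist as a sex term (0.57, adjusted p = 0.0777), without the arrays with Xist (0.57, adjusted p = 0.165) and without the pancreas arrays (0.54, adjusted p = 0.0669).

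The other canalicular transporters gave no calls. Abcb11 (BSEP), the bile salt export pump, was at 9.99, 9.92 and 9.99 in Mir137-/- and at 10.09, 9.93 and 10.12 in Mir137+/+. These values overlapped, with a difference of -0.08 (SE 0.09, adjusted p = 0.624). The phospholipid floppase Abcb4 differed by 0.16 (SE 0.08, adjusted p = 0.257) and the conjugate exporter Abcc2 (MRP2) by 0.16 (SE 0.11, adjusted p = 0.404). Abcg5 and Abcg8, neighbours that form the sterol exporter together, differed by -0.20 (SE 0.18) and 0.14 (SE 0.12). The drug exporter Abcb1a differed by 0.27 (SE 0.17, adjusted p = 0.369) and the cation antiporter Slc47a1 (MATE1) by -0.16 (SE 0.09, adjusted p = 0.319). With 3 arrays per genotype, a missed threshold does not show that these levels were equal.

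The Abca genes, mostly carriers of lipids, held 0 calls among 14. In limma and in the methods' t-test 1 of them had an unadjusted p below 0.05, and that gene, Abca3, had groups that did not overlap. Abca1, which loads cholesterol onto apolipoprotein A-I, was at 10.82 ± 0.03 and 10.88 ± 0.07 (SD, n = 3 each) and differed by -0.06 (adjusted p = 0.70). Abca8a differed by 0.02 (adjusted p = 0.933). Abca3, a phospholipid carrier of lamellar bodies, was at 7.87, 8.25 and 8.01 against 8.46, 8.46 and 8.50, and its difference of -0.43 (adjusted p = 0.0423) was under 1.5-fold. Abcc9, the sulfonylurea receptor subunit of vascular potassium channels, differed by 0.29 (adjusted p = 0.103) and Abcc6, which is needed for pyrophosphate release from liver, by -0.04 (adjusted p = 0.867). A less bright Abcc9 probe set was called higher at 0.60 (adjusted p = 0.0201 over all probe sets in limma). Another differed by 0.33 and was not called, so the call for Abcc9 depended on the probe set.

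ABC genes of inner membranes were described apart, and 7 were measured. Of these 0 were called, and the median difference was -0.02. An unadjusted p below 0.05 in limma and in the methods' t-test was held by 2 (1 lower and 1 higher, 14.3% each, near the shares of all genes). Groups did not overlap for 2 (28.6%, against 32.3% of all genes). Abcd3 (PMP70), the peroxisomal importer of branched and dicarboxylic acyl chains, was at 11.01, 11.04 and 11.13 against 11.40, 11.30 and 11.29, with a difference of -0.27 (adjusted p = 0.0783). Abcd2, the peroxisomal importer of very long chain acyl-CoA, was at 9.32, 9.04 and 9.58 against 8.93, 8.75 and 8.65, with a difference of 0.54 (adjusted p = 0.0534). Without Mir137-/- replicate 2 it was called (0.67, adjusted p = 0.0271). Abcb6, a porphyrin carrier, differed by -0.02 (adjusted p = 0.928) and the mitochondrial Abcb8 by -0.14 (adjusted p = 0.497).

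Agreement among probe sets of a gene was mixed. Of the 12 called members, 6 had further probe sets, and Slc22a26, Slco2b1, Slc22a5 and Slc22a15 had another that was called in the same direction. For Slc22a8 and Abcc12 the other probe set was not called, and 0 were called in the opposite direction. Over all 45037 probe sets, 4.52% were called. The further probe sets belong to genes already called on the same arrays, so that share does not say how much agreement to expect.

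**Figure D3:**
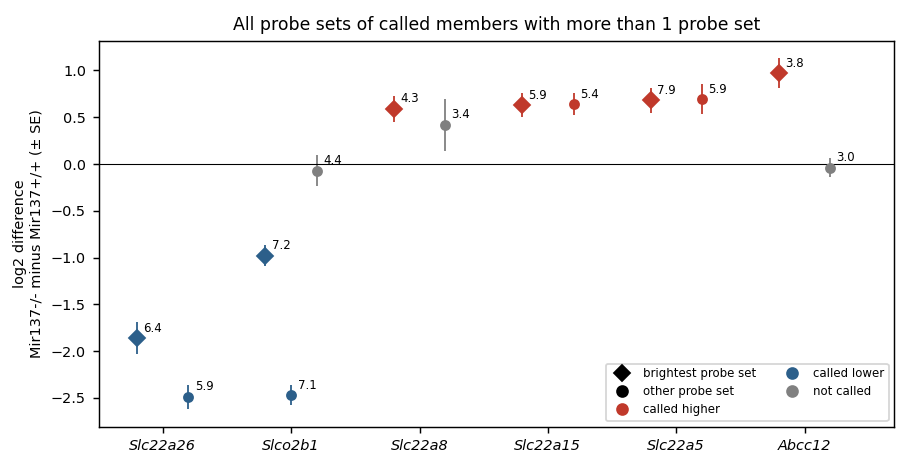
Difference at every probe set of the called members that have more than 1 (log2, Mir137-/- minus Mir137+/+, bars show the SE), with the mean log2 level over the 6 arrays beside each point. The probe sets of Slco2b1 lie at -2.47, -0.98 and -0.07, and the one near 0 has a low level.

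The Mir137-/- array farthest from the Mir137+/+ mean was read for each called member. Mir137-/- replicate 2, the array with the most pancreas transcripts, lay farthest from the Mir137+/+ mean for 8 of the 12 called members, among them Slc22a7, Slc22a26, Slc22a29 and Slc22a27. Replicates 1 and 3 were farthest for 2 members each. The margin over the next array was wide for Slc22a7 (6.85 against 7.49) and small for Abcc12 (4.35 against 4.33) and Slc22a27 (8.97 against 9.05). The same count over all genes was not made, so it is not known whether replicate 2 was farthest in general. A link to pancreas transcripts was not tested. Without both arrays that held pancreas transcripts, 4 of the 12 were still called, namely Slc22a7, Slc22a26, Slco2b1 and Slco1a4. With Xist as a sex term 5 were, these and Abcc12, and without the arrays with Xist 2 were, Slco1a4 and Abcc12.

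**Figure D4:**
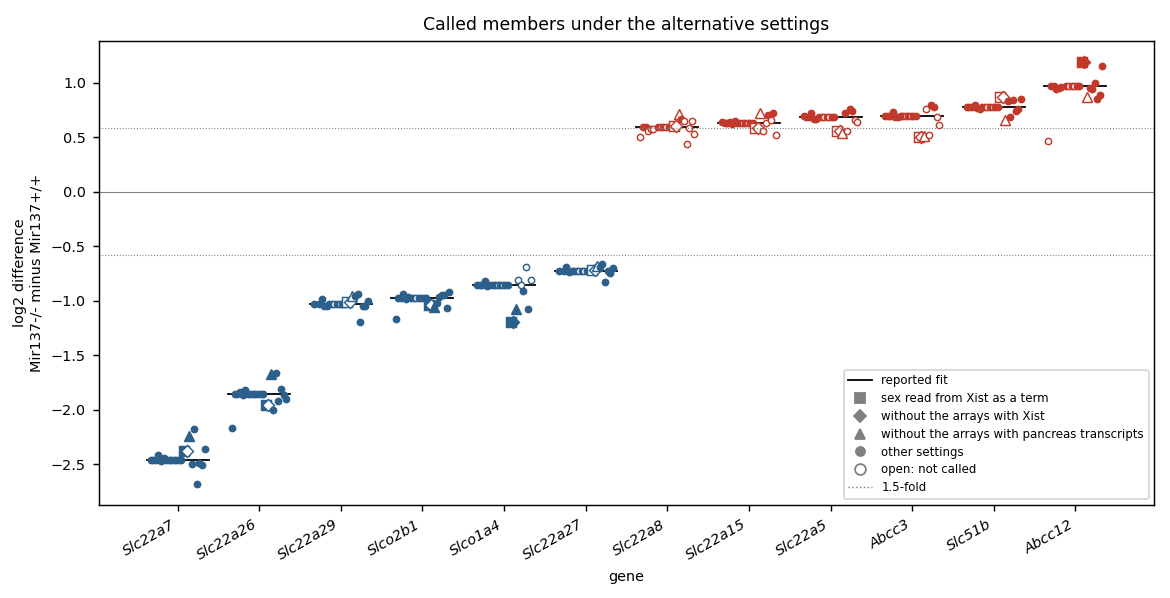
Difference (log2, Mir137-/- minus Mir137+/+) of the 12 called members under each of 22 other settings, with the reported value as a black line and 1.5-fold as dotted lines. Filled points were called and open points were not, squares use sex read from Xist, diamonds leave out the arrays with Xist, triangles leave out the arrays with pancreas transcripts, and a gene without a probe set in a setting has no point there. No member changes sign.

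Starts of called members were searched for short motifs in RefSeq windows of 300 bases, 250 before and 50 after each annotated start (GRCm38.p6). Windows were held for 69 of the 85 members and for 10 of the 12 called ones, with none for Slc22a7 and Abcc3. The 4 motifs were picked with the members' values known, so the counts are a description only. They were AGGTCA, a core of nuclear receptor sites, TGACNNNGC, the core of antioxidant response elements, GTTAAT, a core of HNF1 sites, and TTCNNNGAA, the letters of STAT sites, each on both strands. Among all 32851 windows the shares were 16.3%, 12.4%, 7.1% and 8.3%, and among the 81 windows of members they were 18.5%, 13.6%, 6.17% and 14.8%. Among the 12 windows of called members the motifs were in 2, 1, 2 and 5. The 5 windows with TTCNNNGAA belong to 4 genes, of which Slc22a26 and Slco2b1 fell and Slc22a15 and Slc51b rose. AGGTCA was held by the called genes Slc22a27 and Slc51b, TGACNNNGC by Slc22a27, and GTTAAT by Slc22a29 and Slc22a8. A match is a stretch of letters and not a measured binding site.

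The windows of those 4 genes that hold TTCNNNGAA before the start are shown in the direction of transcription, all from the minus strand, with the match in capitals. They were chosen after the search, and the first base of the match lies at -141 from the start in Slc22a26, -133 in Slco2b1, -164 in Slc22a15 and -65 in Slc51b. Another start of Slco2b1 has a match at 14 after the start and is not shown.
Slc22a26, chr19:7802618-7802917: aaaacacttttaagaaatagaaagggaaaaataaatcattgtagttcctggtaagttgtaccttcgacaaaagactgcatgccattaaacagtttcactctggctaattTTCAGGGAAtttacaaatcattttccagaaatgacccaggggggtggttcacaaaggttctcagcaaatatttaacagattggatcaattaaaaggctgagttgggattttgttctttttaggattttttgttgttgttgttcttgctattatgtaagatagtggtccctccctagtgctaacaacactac
Slco2b1, chr7:99695760-99696059: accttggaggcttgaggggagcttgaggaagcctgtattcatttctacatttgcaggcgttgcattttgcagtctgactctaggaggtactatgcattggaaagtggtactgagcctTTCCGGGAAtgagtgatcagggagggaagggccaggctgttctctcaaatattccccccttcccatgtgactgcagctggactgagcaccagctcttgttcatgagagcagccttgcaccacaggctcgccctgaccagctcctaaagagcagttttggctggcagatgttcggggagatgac
Slc22a15, chr3:101924404-101924703: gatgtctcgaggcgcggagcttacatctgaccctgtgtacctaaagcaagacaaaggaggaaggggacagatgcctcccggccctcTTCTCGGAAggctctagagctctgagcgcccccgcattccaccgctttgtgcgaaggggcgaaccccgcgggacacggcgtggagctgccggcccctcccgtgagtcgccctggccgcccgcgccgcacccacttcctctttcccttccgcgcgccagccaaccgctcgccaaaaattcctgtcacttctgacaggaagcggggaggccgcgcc
Slc51b, chr9:65422724-65423023: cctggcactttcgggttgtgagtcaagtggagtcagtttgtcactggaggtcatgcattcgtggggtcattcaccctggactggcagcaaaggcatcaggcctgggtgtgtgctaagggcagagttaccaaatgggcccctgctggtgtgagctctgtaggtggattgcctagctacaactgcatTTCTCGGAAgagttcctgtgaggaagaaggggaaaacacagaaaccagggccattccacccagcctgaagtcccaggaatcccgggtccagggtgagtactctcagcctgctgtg
These letters occur in genes that fell and in genes that rose, and nothing is drawn from them about a factor.

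Genes known to regulate carriers were read in the same fit. Of 18 measured of 20 listed, 1 was higher (5.56%) and 2 were lower (11.1%), with a median of -0.21. Over all genes 2.34% were called higher and 3.34% lower, and over all genes that were not dim 3.23% and 4.48%. In limma at an unadjusted p below 0.05, 8 were lower and 2 were higher (44.4% and 11.1%). The shares were 14.6% and 12.2% over all genes, and 20.1% and 14.8% over all genes that were not dim. Groups did not overlap for 10 of the 18 (8 lower and 2 higher). That is 55.6%, against 32.3% of all genes and 42.5% of all genes that were not dim. This list too was chosen with earlier results of these data known, so the shares are a description only. Nr1h4 (FXR), the bile acid receptor, was at 8.40, 8.58 and 8.71 against 9.41, 9.32 and 9.31, and fell by 0.78 (SE 0.10, adjusted p = 0.0031). It was not called without the pancreas arrays (-0.80, adjusted p = 0.0508) or without the arrays with Xist (-0.85, adjusted p = 0.113). Nr0b2 (SHP), a corepressor that FXR induces, was at 8.82, 8.86 and 8.55 against 7.78, 8.18 and 7.92, and rose by 0.78 (SE 0.13, adjusted p = 0.0095). It was not called without the arrays with Xist (0.96, adjusted p = 0.0954). Nfe2l2 (NRF2), the activator of antioxidant genes, differed by -0.88 (SE 0.14, adjusted p = 0.00642), but it was not called with Xist as a sex term (-0.86, adjusted p = 0.0936) or without the pancreas arrays (-0.84, adjusted p = 0.0777), and the mean of its probe sets gave 0.36 (adjusted p = 0.146), so its direction depended on the probe set. For Klb, the coreceptor for FGF15 and FGF21, the difference of 0.58 (adjusted p = 0.0042) stayed below 1.5-fold.

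Of 14 measured canalicular scaffold and trafficking genes among 15, 1 was higher (7.14%), 0 were lower and the median was -0.02. Over all genes 2.34% were called higher and 3.34% lower. Without adjustment, 1 was lower and 2 were higher at p below 0.05 in limma, and 2 were lower and 1 was higher in the methods' t-test, shares of 7.14% or 14.3% that are near or below those of all genes. Pdzk1, a scaffold that holds OATPs and other carriers at the membrane, was at 9.72, 9.30 and 9.46 against 8.62, 8.65 and 8.63, and rose by 0.86 (SE 0.12, adjusted p = 0.0036). Tmem30a, a subunit of lipid flippases, differed by -0.51 (adjusted p = 0.0113), under the fold threshold. With Xist as a sex term Pdzk1 was not called (0.87, adjusted p = 0.061).

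Of 21 measured hepatic carriers from other families, among 23 listed, 4 were lower (19%) and 0 were higher, with a median of -0.14. Over all genes 3.34% were called lower and 2.34% higher, and over all genes that were not dim 4.48% and 3.23%. Without adjustment, 9 were lower and 1 was higher at p below 0.05 in limma, against 8 and 0 in the methods' t-test. The lower shares of 42.9% and 38.1% stand against 14.6% and 13.6% of all genes, and the higher one of 4.76% in limma against 12.2%. Of the 21 genes 20 were not dim, and of all genes that were not dim 20.1% and 19.2% were lower. The list was chosen with earlier results of these data known, so the shares are a description only. Aqp8, a water channel of the canalicular membrane, was at 6.04, 5.48 and 6.36 against 7.36, 7.63 and 7.80, and fell by 1.64 (SE 0.22, adjusted p = 0.0035). With Xist as a sex term it was not called (-1.40, adjusted p = 0.0743). Slc23a1, the sodium-driven vitamin C carrier, fell by 1.18 (SE 0.11, adjusted p = 9.00e-04). Slc16a10, a carrier of aromatic amino acids, fell by 0.95 (SE 0.20, adjusted p = 0.0226), and Slc46a3, a lysosomal carrier, fell by 0.70 (SE 0.10, adjusted p = 0.00553). The Slc16a10 call was lost without Mir137-/- replicate 2 (-0.97, adjusted p = 0.0587) and without Mir137+/+ replicate 1, 2 or 3 (-0.94, -0.99 and -0.93). With Xist as a sex term it was also lost (-0.98, adjusted p = 0.178), as it was without the pancreas arrays (-1.01, adjusted p = 0.14). Without the arrays with Xist, which leaves 1 Mir137+/+ array, 0 of the 4 were called, with differences of -1.40 for Aqp8, -1.16 for Slc23a1, -0.98 for Slc16a10 and -0.84 for Slc46a3.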

How the data were processed

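Values were log2 levels of probe sets, deposited by the authors as a single table of 45101 probe sets on 6 Affymetrix whole-genome mouse arrays. Per the labels the summary was GCRMA (no version given), whereas the study's methods name RMA with a baseline step, and they also differ on the amount of RNA used. Background, summary and any filter were thus the authors', and nothing was normalized again. The log2 range was 1.22 to 13.79 and array medians lay between 4.88 and 4.91. The number of arrays limits the precision: an exact two-sided permutation test of 3 against 3 cannot go below p = 0.1.

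After 64 control probe sets were left out, 45037 remained, of which 34945 had 1 gene, 932 several and 9160 none in the platform annotation. By Entrez gene 34741 matched the RefSeq table (GRCm38). The 85 members had 150 probe sets, and 41 had more than 1. Groups came from the genotype label. Differences were fitted with limma (version 3.58.1, R version 4.3.3), lmFit and eBayes, without covariates, and tested on simulated data. The members, gene lists, call rule and the settings on Xist and pancreas transcripts were chosen with earlier results of these data known. Genes named were the called members, the 2 brightest uncalled members of each family, 20 measured of 21 known hepatic carriers, members with called probe sets of opposite direction (0), and called genes of the 3 other lists; further members in the text were named after their values were seen. Alternatives were another gene summary, probe set filter, adjustment, scaling, weights, dim filter, call rule and test, a replicate block, a sex term, and arrays left out. With the sex term, each value rests on the 3 Mir137-/- arrays against Mir137+/+ replicate 1 alone, which is assumed to vary like the others.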

Additional observations from a re-analysis of the deposited data

Results flagged for a closer look

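A probe set that the gene-level comparison does not use, because the annotation gives it both Slc22a30 and Slc22a29, was at 8.28, 8.24 and 8.44 in Mir137-/- and at 9.37, 9.45 and 9.48 in Mir137+/+. It drew attention as a difference in data outside the main measurement, with -1.11 (SE 0.10, adjusted p = 5.85e-04 over all probe sets in limma). The Slc22a29 probe set differed by -1.03 and the one for Slc22a30 alone by 0.36 (adjusted p = 0.153). Which of the genes gave the signal was not tested.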

How the results depend on the processing

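Of the 12 called members, 0 were called under all 22 alternatives, and 0 changed sign. Calls of the 3 uptake carriers that were higher went to 0 with treat against 1.5-fold, with the methods' t-test after adjustment, with Xist as a sex term, without the arrays with Xist and without the pancreas arrays, and leaving out 1 array gave 0 (without Mir137-/- replicate 2) to 2, with 1 without any of the Mir137+/+ arrays. The 6 lower ones became 2 with treat, 3 with the adjusted t-test and 1 without the arrays with Xist, and 5 to 6 when 1 array was left out. The 3 higher export genes became 0 with treat, 0 with the adjusted t-test, 1 with the sex term, 1 without the arrays with Xist and 0 without the pancreas arrays. Without probe sets ending in _s_at or _x_at, which leaves out Slc22a27 and Slc22a29, the lower uptake carriers numbered 4. Lower export genes numbered 1 with no fold threshold. The uptake median of 0.02 became -0.19 without the dimmest 40% of genes and -0.02 without the pancreas arrays. The export median of 0.03 became -0.05 with the sex term, -0.05 without the arrays with Xist and -0.03 without the pancreas arrays. Called regulators (3) numbered 0 with treat, 1 with the adjusted t-test, 0 without the arrays with Xist and 1 without the pancreas arrays. Scaffold genes (1) numbered 2 with the mean of all probe sets, 2 with no fold threshold, and 0 with treat, the sex term or without the arrays with Xist. The other carriers (4) numbered 1 with treat, 2 with the adjusted t-test, 2 with the sex term and 0 without the arrays with Xist. Nfe2l2 turned to 0.36 with the mean of all probe sets. Apart from smaller designs, the cause was not tested. Over all genes, higher and lower calls were 49 and 90 with treat, 182 and 284 with the adjusted t-test, 184 and 259 with the sex term, 54 and 73 without the arrays with Xist, 228 and 390 without the pancreas arrays and 922 and 1256 with no fold threshold.

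The labels number the biological replicates and do not say whether same-numbered mice share a litter or batch. Deviations of same-numbered arrays correlated at 0.102, 0.235 and 0.025. Replicates 1 and 2 of each genotype correlated best with their own number, and replicate 3 did not. With the replicate number as a block, uptake gave 6 lower and 2 higher calls, export 0 and 3, and Slc22a8 (0.59, adjusted p = 0.0664) was the only called member lost. Dim genes have no stated floor, which limits Slc22a8 and Abcc12.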
